A study of Mus musculus with 50 samples.

Results

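The paraventricular nucleus of the hypothalamus (PVN) of C57BL/6J mice was profiled 8 h after a forced swim, on the 10 arrays labelled as 8 h against basal in this strain, out of 50 arrays in the series. All 10 arrays carried the same 2 RNA pools. The stressed pool came from male C57BL/6J mice, 3 to 5 months old and singly housed, that swam for 5 min in a cylinder of water and were decapitated 8 h later. The basal pool came from C57BL/6J males of the same age and housing that did not swim. Tissue punches of 6 animals were pooled per condition and the RNA was amplified before labelling, so each condition was 1 pool. The pools were labelled with Cy5 and Cy3, with the stressed pool in Cy5 on 5 arrays and in Cy3 on the other 5. P-values over these arrays therefore measure the spread of labelling and hybridisation between 2 pools, and the spread between mice was not measured. Values are also set beside 3 further sets of 10 arrays each: C57BL/6J males 4 h after the swim over the same basal pool, DBA/2J males 8 h after the swim over unstressed DBA/2J males, and unstressed DBA/2J over unstressed C57BL/6J males, with the same age, housing and swim.

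Neurons of the PVN release corticotropin-releasing hormone and vasopressin, which start the hormonal stress response that ends with glucocorticoids from the adrenal gland. Glucocorticoids act back on the PVN through the glucocorticoid receptor, which is kept ready to bind hormone by the Hsp90 chaperone and its partner proteins. The forced swim is a short emotional stressor. RNA of a whole tissue punch does not tell fewer cells of a type from less RNA per cell.

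Values are log2 ratios of the stressed pool over the basal pool by the dyes in the labels. For most genes printed as examples for this comparison, Adam10, Insig1 and Rgs2 among them, the published fold has the opposite sign, and the files do not settle which direction holds. Exceptions are Baiap2, whose brightest clone has the published sign here, and Kif3b, whose dim clones lie on both sides of 0. By the paper, real-time PCR on samples that were not pooled gave App its published direction, higher after the swim. That PCR result is for the other strain, at the same time after the swim. What it implies for the sign of the present comparison was not tested. With the sign turned, every clone described here as higher becomes lower and every lower one becomes higher, while sizes and tests stay as they are. The array held 22824 cDNA clones besides 1368 control spots, and 8994 clones were given a gene symbol. A clone was called when limma gave a Benjamini-Hochberg adjusted p under 0.05 over all clones and a mean ratio of at least 1.414-fold either way.

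The arrays' median intensities ran from 165 to 258 for Cy5 and from 251 to 437 for Cy3. Of the clones, 15.8% to 32.7% in the stressed channel and 13.6% to 34.9% in the basal channel exceeded the 95th percentile of the array's empty spots, which is what above the empty spots means here. The clones of Avp (vasopressin) and Oxt (oxytocin) were above the empty spots on 0 of 10 arrays in both channels, and no clone was given the symbol Crh. Nr3c1 (the glucocorticoid receptor) and Pou3f2 (a transcription factor of PVN neurons) were above them on 10 of 10 arrays in both channels. Of the 14 clones of PVN markers, 5 were above them on 5 or more arrays in a channel, the other 3 being clones of the peptides Cartpt and Sst and of the transcription factor Arnt2, and none of the 5 genes is specific to the PVN. The mean ratios of the 2 dye orientations correlated at -0.26 across the 22824 clones, which are not independent replicates. The arrays were scanned on 2 days. The first day held 4 arrays, all with the stressed pool in Cy5, and the second day held 1 array with that orientation and 5 with the other, so the day is largely tied to the dye. The 18 clones called higher had mean ratios of 0.32 to 1.46 on the first day and 0.59 to 1.70 on the second, and the clone called lower had -0.55 and -0.87.

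Limma called 19 clones (0.0832% of all clones), 18 higher (0.0789%) and 1 lower (0.00438%). Centring each array on its median in place of loess gave 17 higher and 17 lower. Without adjustment, at p under 0.05, here termed nominal, 9.28% of all clones differed, 5.04% higher and 4.24% lower. The calls belonged to 9 gene symbols and to 2 array names that fit several genes, and 4 called clones had no gene name. For 3 genes, Ptges3, Adam10 and Insig1, 2 separate clones were called in the same direction. All 18 higher clones were above 0 on 10 of 10 arrays and the lower clone was below 0 on 10 of 10. Over the whole array, 0.973% of clones kept 1 sign throughout. A wider set of 206 clones (0.903%) kept 1 sign on 10 of 10 arrays with a nominal p, 136 higher and 70 lower. Of the 19 called clones, 9 kept their call whichever array was left out: spot 5449 of Ptges3, both Adam10 clones, spot 10784 of Insig1, Serpinf1, Gpc4, Tacc1, Dpysl2 and the unnamed spot 15590.

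**Figure D1:**
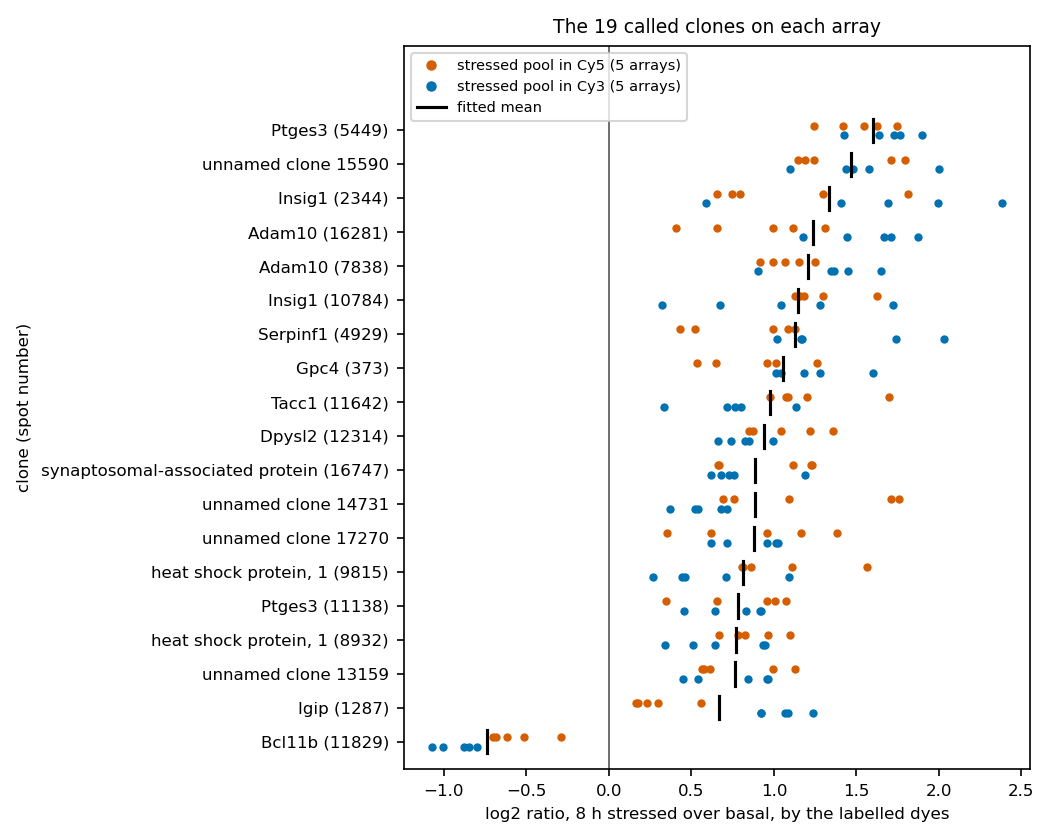
Log2 ratio of the stressed over the basal pool on each of the 10 arrays (x axis) for the 19 called clones (y axis, with spot numbers). Points are single arrays, coloured by the dye of the stressed pool, and black ticks are fitted means. All points of 18 clones lie right of 0 and all points of the Bcl11b clone lie left of it, and the Igip clone shows the 2 orientations apart.

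**Figure D2:**
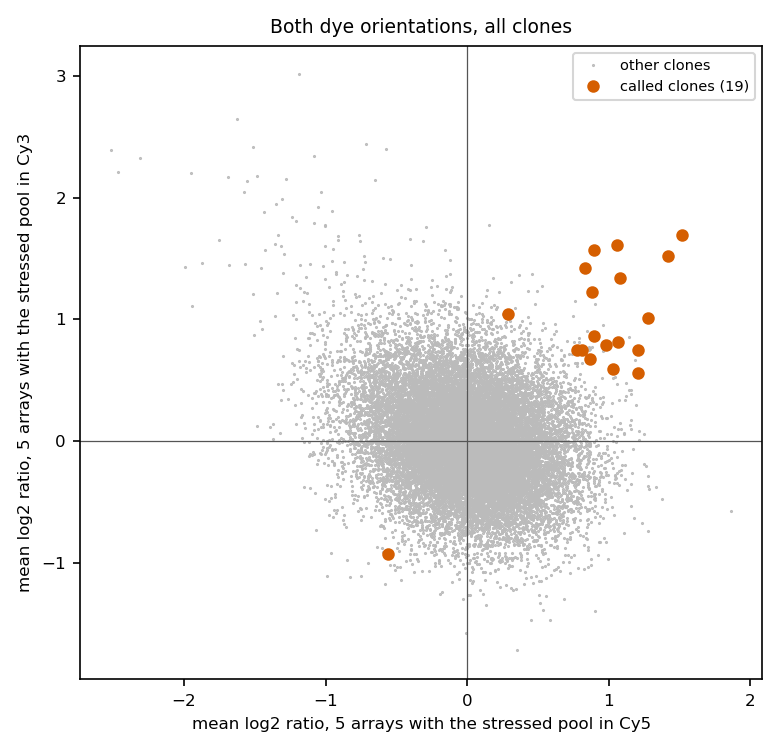
Mean log2 ratio of each clone on the 5 arrays that had stressed RNA in Cy5 (x axis) and on the 5 with it in Cy3 (y axis). The grey cloud of 22824 clones leans towards the corners where the orientations oppose, with a correlation of -0.26, and the 19 called clones, in orange, lie in the corners where they have the same sign.

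The promoters of the 3 genes with 2 called clones each are shown, since the results turn on them. Of the 9 called symbols, 6 had a window searched in the RefSeq promoter table (build GRCm38.p6), from 250 bases before to 50 after the start site. Capitals mark the palindrome CACGTG, the E-box bound by USF, CLOCK and other factors, the only one marked of several motifs searched. It was present in the windows of Insig1 and Adam10 and in 7.15% of 32851 promoter windows of the table. All 3 windows are on the plus strand, chr5:28071162-28071461 for Insig1, chr9:70678732-70679031 for Adam10 and chr10:128058732-128059031 for Ptges3.
Insig1: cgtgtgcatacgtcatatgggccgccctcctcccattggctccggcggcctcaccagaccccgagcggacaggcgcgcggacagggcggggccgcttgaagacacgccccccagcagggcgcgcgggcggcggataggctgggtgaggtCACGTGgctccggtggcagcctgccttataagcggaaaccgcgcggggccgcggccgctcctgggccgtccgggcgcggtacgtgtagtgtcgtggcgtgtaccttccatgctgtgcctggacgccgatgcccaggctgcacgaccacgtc
Adam10: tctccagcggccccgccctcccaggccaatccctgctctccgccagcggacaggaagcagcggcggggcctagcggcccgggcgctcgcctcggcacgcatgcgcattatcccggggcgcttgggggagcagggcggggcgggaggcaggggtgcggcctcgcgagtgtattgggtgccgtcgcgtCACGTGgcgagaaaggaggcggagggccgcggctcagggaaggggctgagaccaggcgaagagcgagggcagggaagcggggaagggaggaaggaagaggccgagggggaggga
Ptges3: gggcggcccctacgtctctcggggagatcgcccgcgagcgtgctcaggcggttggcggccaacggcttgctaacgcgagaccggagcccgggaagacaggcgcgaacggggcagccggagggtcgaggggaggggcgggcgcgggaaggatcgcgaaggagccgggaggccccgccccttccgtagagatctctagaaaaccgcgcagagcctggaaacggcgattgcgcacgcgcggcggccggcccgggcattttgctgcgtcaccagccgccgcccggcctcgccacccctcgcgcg
The E-box lay from base -101 to -96 of the Insig1 window and from -64 to -59 of the Adam10 window, counted from the start site. Motifs of the same 6 windows were searched on both strands by their letters. The sterol regulatory element matched in 0 of 6 windows and in 0.234% of all windows, the glucocorticoid response element in 0 of 6 and 0.475%, and the heat shock element in 0 of 6 and 0.603%. The GC box GGGCGG matched in 4 of 6 windows and in 35.7% of all windows, and the CCAAT box in 3 of 6 and 37.4%. The cAMP response element matched in 0 of 6 and 1.79%, and its short form TGACG in 3 of 6 and 20.8%. A match of letters is no binding site, and a missing match says nothing of the factor.

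Ptges3 encodes p23, a co-chaperone that stabilises Hsp90 bound to its clients, among them the glucocorticoid receptor. Its clone at spot 5449 had the highest ratio of all called clones. The ratio was 1.25 on the lowest array, 1.63 at the median and 1.90 on the highest, with a fitted mean of 1.60 (standard error 0.11, 3.04-fold, adjusted p = 8.55e-05). In scanned intensity, the stressed pool read 5295 to 11730 in Cy5, against 2527 to 5438 for the basal pool in Cy3 on the same 5 arrays. With the dyes swapped, the stressed pool read 4202 to 12230 in Cy3, against 1428 to 3680 for the basal pool in Cy5. The ranges of the 2 pools overlapped only at their edge in the first orientation and not in the second. A second Ptges3 clone, spot 11138, was 1.72-fold higher, with a lowest array of 0.34, a median of 0.87 and a highest of 1.08 (fitted mean 0.78, standard error 0.12, adjusted p = 0.0385). This second call was lost in 9 of 10 fits with 1 array left out (adjusted p up to 0.122), with median centring and without background subtraction. Spot 22079, also of this name, was about as bright and stood at 0.00 (standard error 0.13, 5 of 10 arrays above 0). The last, spot 9600, was above the empty spots on 1 of 10 arrays in either channel.

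Of 124 clones of heat shock proteins and chaperones, 4 were called higher and 0 lower by limma, 2 of Ptges3 and 2 of the name "heat shock protein, 1", from which the array's list has dropped the protein mass, so that its gene was not resolved. Spot 9815 had a lowest array of 0.27, a median of 0.81 and a highest of 1.57 (fitted mean 0.81, standard error 0.13, 1.76-fold, adjusted p = 0.0450). In the authors' processed values it stood at a log2 ratio of 0.97. As a fold, that size matches the one printed by the study for Hspca (heat shock protein 1, alpha), with the sign turned. Whether spot 9815 is the Hspca clone was not tested. Spot 8932 had a lowest array of 0.34, a median of 0.80 and a highest of 1.10 (fitted mean 0.77, standard error 0.12, 1.71-fold, adjusted p = 0.0313). Both calls were lost whichever single array was left out, with adjusted p up to 0.138. The 3 other clones named "heat shock protein, 1" lay at -0.20, -0.21 and -0.22, all above the empty spots on at least 9 arrays in both channels. Nominally, 8 clones of the list were higher (6.45%, against 5.04% of all clones) and 7 were lower (5.65%, against 4.24%). Hspa4, an Hsp110-type exchange factor of Hsp70, stood at 0.44 (standard error 0.11, adjusted p = 0.22) and Tcp1, a subunit of the chaperonin that folds actin and tubulin, at -0.42 (standard error 0.14, adjusted p = 0.35), both short of the call. The list's median of -0.02 ± 0.06 (SD over 10 array medians) lay by that of all clones, -0.01.

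Adam10, the membrane protease that acts as alpha-secretase on the amyloid precursor protein and cuts Notch and cadherins, was higher in 2 of its 4 clones. Spot 7838 had a lowest array of 0.90, a median of 1.20 and a highest of 1.65 (fitted mean 1.21, standard error 0.12, 2.31-fold, adjusted p = 0.00106). Spot 16281 had a lowest array of 0.41, a median of 1.24 and a highest of 1.87 (fitted mean 1.23, standard error 0.13, 2.35-fold, adjusted p = 0.00245). For this clone the stressed pool read 1241 to 2083 in Cy5, against 1115 to 1258 for basal in Cy3, and 1446 to 4448 in Cy3, against 381 to 1500 for basal in Cy5. Spot 24156 stood at 0.69 (standard error 0.18, 9 of 10 arrays above 0, adjusted p = 0.23), with 0.14 in one orientation and 1.24 in the other. The last was not above the empty spots on any array in either channel. Of 44 clones of amyloid precursor proteins and secretases, the 2 Adam10 clones were the calls. The App clone with the lowest p, spot 3600, stood below 0 on 10 of 10 arrays, at -0.42 (standard error 0.11, adjusted p = 0.27), short of the call, and its next brightest clones stood at -0.12 and -0.30. In all, 3 clones of the list were higher and 4 were lower nominally, 6.82% and 9.09% against 5.04% and 4.24% of all clones.

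Insig1 holds the sterol sensor of the endoplasmic reticulum in place, which keeps the sterol regulatory factors inactive when cholesterol is sufficient. On its 2 called clones the array with the lowest ratio had 0.59 at spot 2344 and 0.32 at spot 10784. The medians were 1.35 and 1.17 and the highest arrays 2.38 and 1.72. Spot 2344 was 2.53-fold higher (fitted mean 1.34, standard error 0.18, adjusted p = 0.0145) and spot 10784 was 2.21-fold higher (fitted mean 1.14, standard error 0.14, adjusted p = 0.00856). At spot 10784 the stressed pool read 1279 to 2809 in Cy5, against 577 to 1916 for basal in Cy3, and 1249 to 3901 in Cy3, against 535 to 1622 for basal in Cy5. Spot 2344 was dimmer, above the empty spots on 9 of 10 arrays for the stressed pool and on 2 of 10 for the basal pool. The other Insig1 clone was above the empty spots on 1 array in each channel. These 2 clones were the only calls among 55 clones of sterol and fatty acid synthesis and its feedback control. The enzymes of the pathway that Insig1 restrains showed no call. In the list, 2 clones were higher and 3 were lower nominally (3.64% and 5.45%, against 5.04% and 4.24% of all clones). Of the lower ones, Stard4, a carrier of cholesterol between membranes, stood at -0.59 (standard error 0.12, adjusted p = 0.12), with 8 of 10 arrays below 0 and -0.06 in one orientation against -1.13 in the other, and a second measured clone stood at 0.11. The other 2 were clones of Scd2, a desaturase of fatty acid synthesis, and the brighter of them stood at -0.37 (standard error 0.13, adjusted p = 0.39). In the 32 cholesterol transport and liver X receptor target clones, limma called 0, and so did the methods' t-test after adjustment. Nominally, 1 was higher and 2 were lower (3.12% and 6.25%, against 5.04% and 4.24% of all clones).

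Serpinf1 encodes a secreted factor that supports neurons and restrains vessel growth. It read 492 to 1281 in the stressed pool in Cy5, against 372 to 1034 in the basal pool in Cy3, and 990 to 3757 in the stressed pool in Cy3, against 282 to 801 in the basal pool in Cy5. Its ratio ran over 0.43, 1.11 and 2.03 at the lowest array, the median and the highest, with a fitted mean of 2.19-fold (log2 ratio 1.13, standard error 0.14, adjusted p = 0.00856). The stressed pool was above the empty spots on 10 of 10 arrays and the basal pool on 5. Gpc4 encodes glypican 4, a heparan sulfate proteoglycan that astrocytes release to promote synapses. Its called clone had a lowest array of 0.53, a median of 1.03 and a highest of 1.60, 2.07-fold on average. The other Gpc4 clone was above the empty spots on 3 arrays for the stressed pool and 4 for the basal pool, and stood at -0.13 (standard error 0.18). Serpinf1 was the 1 call among 66 clones of growth factor signalling and neurotrophic factors, and Gpc4 the 1 call among 53 clones of proteoglycans and heparan sulfate synthesis. In the proteoglycan list Spock1, a secreted proteoglycan of neurons, stood at 0.47 (standard error 0.12, adjusted p = 0.24), short of the call.

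Among 117 clones of microtubules, motors and axon growth, 2 were called, both higher. Dpysl2 encodes CRMP2, which binds tubulin and guides axon growth, and its spot 12314 had a lowest array of 0.66, a median of 0.86 and a highest of 1.36 (fitted mean 0.94, standard error 0.11, 1.92-fold, adjusted p = 0.0059). A brighter clone of Dpysl2, spot 8972, stood at -0.17 (standard error 0.11, 9 of 10 arrays below 0). Tacc1, a protein of centrosomes and microtubule ends, had a lowest array of 0.34, a median of 1.03 and a highest of 1.70 at its called clone, 1.97-fold on average. Nominally, 14 clones of this list were higher (12%, against 5.04% of all clones) and 6 were lower (5.13%, against 4.24%). Mapt, which encodes tau, stood at 0.56 at spot 20487 (standard error 0.14, adjusted p = 0.22), but at 0.01 at a brighter clone (standard error 0.12). Kif5b, the heavy chain of the ubiquitous kinesin, had 3 clones among the 14, and the 2 that were above the empty spots on 5 or more arrays stood at 0.47 and 0.45 (adjusted p = 0.26 and 0.47), while its brightest clone stood at 0.03. Dynll1, a light chain of dynein, stood at -0.45 on 10 of 10 arrays (standard error 0.10, adjusted p = 0.16).

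Of 117 clones of synaptic vesicles and their fusion, 1 was called, a clone named "synaptosomal-associated protein", a name that several genes share once the mass is dropped. Spot 16747 was higher, with a lowest array of 0.62, a median of 0.74 and a highest of 1.23 (fitted mean 0.89, standard error 0.12, 1.85-fold, adjusted p = 0.0150). The brightest clones of that name, spots 4146, 2149 and 22918, stood at 0.17, 0.16 and -0.01. Syt11, an atypical synaptotagmin, stood at 0.59 at its brightest clone (standard error 0.11, adjusted p = 0.10) and at -0.01 at the next. Cplx1, a complexin that clamps vesicle fusion, stood at -0.41 at its brighter clone (standard error 0.12, adjusted p = 0.28). Both were short of the call.

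Of the other called clones, Igip, named for a factor that induces IgA in lymphocytes, stood at 0.29 with the stressed pool in Cy5 and at 1.05 with it in Cy3. Its lowest array had 0.16, its median was 0.74 and its highest 1.24 (fitted mean 0.67, standard error 0.11, adjusted p = 0.0497). The call was lost whichever single array was left out. Of the 4 clones without a gene name, spot 15590, a cDNA from embryo, was 2.77-fold higher and had the second ratio of all clones called, with 1.10, 1.46 and 2.00 at its lowest array, median and highest (fitted mean 1.47, standard error 0.13, adjusted p = 0.000672). Spots 14731, 17270 and 13159 were 1.85-fold, 1.84-fold and 1.70-fold higher, and at spot 14731 the basal pool was above the empty spots on 4 of 10 arrays.

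The clone called lower was Bcl11b, a zinc finger repressor of cortical and striatal projection neurons. The stressed pool read 275 to 830 in Cy5, against 766 to 1764 for the basal pool in Cy3, and 401 to 879 in Cy3, against 718 to 1265 for the basal pool in Cy5. Its ratio was -1.07 on the lowest array, -0.75 at the median and -0.29 on the highest (fitted mean -0.74, standard error 0.11, 1.67-fold, adjusted p = 0.0267). The other Bcl11b clones stood at -0.23 and -0.34 and were above the empty spots on at most 1 array. The remaining 33 clones of cortex, hippocampus and striatum were not called. Of the 34, 2 were higher and 2 lower nominally (5.88% each, against 5.04% and 4.24% of all clones).

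**Figure D3:**
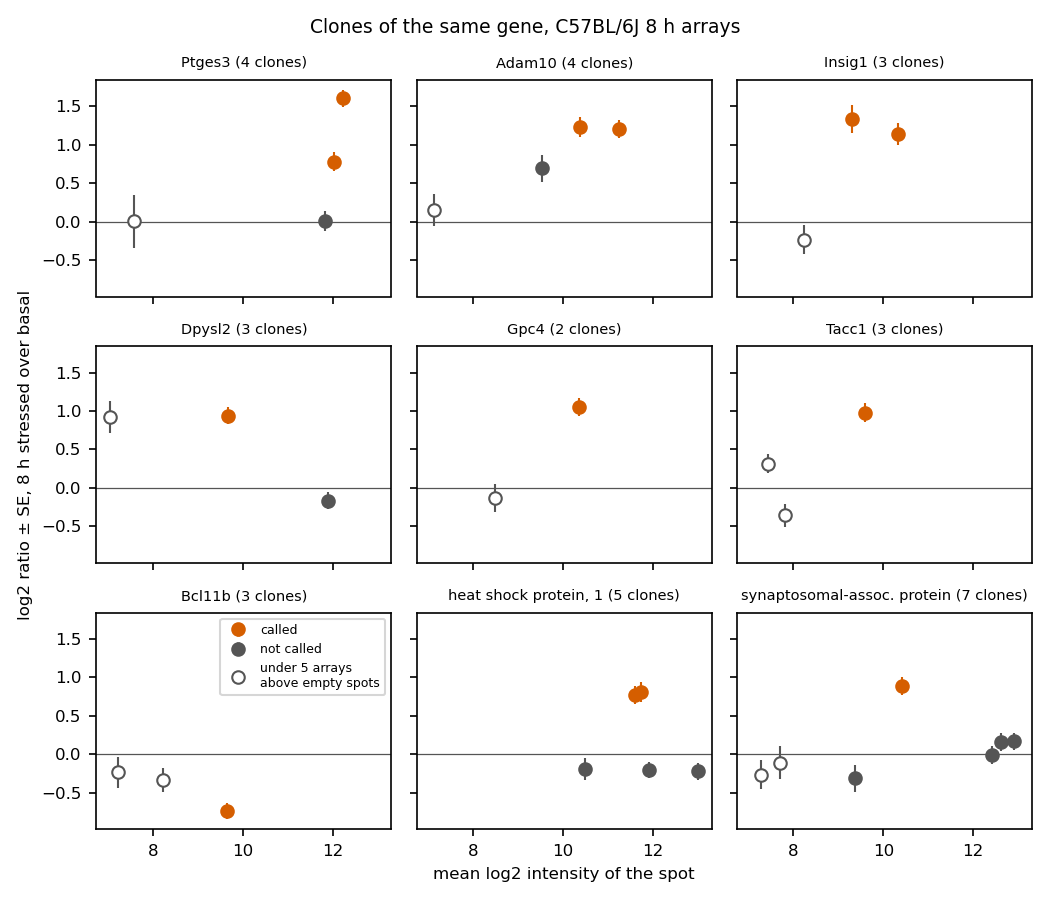
Fitted log2 ratio with its standard error (y axis) against mean log2 spot intensity (x axis) for every clone of 9 called genes or array names. Orange points were called, grey ones were not, and open ones were above the empty spots on under 5 arrays in both channels. The clones of Adam10 and Insig1 that were bright enough lie above 0, while Ptges3, Dpysl2 and "heat shock protein, 1" also hold bright clones near or below 0.

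Clones of the same gene did not always move together. The 11 called genes and names had 36 clones on the array, 15 called and 21 not called. Of the 21, 10 were above the empty spots on 5 or more arrays in a channel, 4 of them with a ratio above 0 and 6 with a ratio below. Bright clones of 1 gene lay apart for Ptges3, at 1.60 and 0.00, and for Dpysl2, at 0.94 and -0.17. Whether such clones carry other transcripts or a wrong name was not tested.

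Below the call, bright clones of 2 signalling genes had ratios below 0 on 10 of 10 arrays. Rgs2, which speeds the shut-off of G proteins of the Gq class, had a lowest array of -1.25, a median of -0.65 and a highest of -0.10 at its brightest clone (fitted mean -0.62, standard error 0.11, adjusted p = 0.0563). Its mean was -1.06 with the stressed pool in Cy5 and -0.18 with it in Cy3, and its other clones stood at -0.23 and 0.11. Gnao1, the alpha subunit of Go, the main G protein of neurons, had a lowest array of -1.14, a median of -0.61 and a highest of -0.14 (fitted mean -0.62, standard error 0.12, adjusted p = 0.101). A second clone of Gnao1, as bright, stood at -0.16 (standard error 0.11), and the other clones were not above the empty spots on any array. Over 70 clones of heterotrimeric G proteins, their regulators and adenylate cyclases, limma called 0, with 2 higher and 9 lower nominally (2.86% and 12.9%, against 5.04% and 4.24% of all clones), and the methods' t-test called 1 lower after adjustment. Of the 9 lower clones, Rgs2, Gnao1 and Gnb2 were above the empty spots on 5 or more arrays.

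Idh3b, a subunit of the citric acid cycle's isocitrate dehydrogenase, was below 0 on 10 of 10 arrays at its brighter clone, from -0.98 to -0.26 (fitted mean -0.62, standard error 0.12, adjusted p = 0.110), and its second clone stood at -0.29 (standard error 0.13). Of 32 clones of the citric acid cycle, 0 were called by limma, 1 in the methods' t-test once adjusted, and 0 were higher and 5 were lower nominally (15.6%, against 4.24% of all clones). The 5 were both Idh3b clones, Idh3g, Mdh2 and Pdha1, all above the empty spots on 7 or more arrays in both channels. Idh3a, a further subunit of the same dehydrogenase and the list's brightest clone, was above 0 on 10 of 10 arrays, at 0.21 (standard error 0.12, adjusted p = 0.62). The list's median of -0.08 ± 0.05 (SD over 10 array medians) was below 0 on 10 of 10 arrays. Of 30 clones of the vacuolar proton ATPase, which acidifies vesicles and lysosomes, 0 were called, with 1 higher and 3 lower nominally (3.33% and 10%, against 5.04% and 4.24% of all clones) and 0 in the methods' t-test. Their median of -0.12 ± 0.06 was below 0 on 10 of 10 arrays, against a median of -0.01 over all clones. Atp6v0d1, a subunit of its membrane sector, stood at -0.67 (standard error 0.14, adjusted p = 0.125). Among the 117 oxidative phosphorylation clones, 0 were called and 0 passed the methods' t-test. Nominally, 7 were higher and 6 were lower (5.98% and 5.13%, against 5.04% and 4.24% of all clones).

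Of the 20 clones that stood highest or lowest among those with a symbol, an unadjusted p under 0.05 and 10 of 10 arrays of 1 sign, 9 highest and 5 lowest were above the empty spots on 5 or more arrays in a channel. Beside the lower ones already given, this set held Nsd3, a histone methyltransferase, at -0.69 (standard error 0.14, adjusted p = 0.115). Las1l among the highest and Impa2, Irx2 and Bfar among the lowest were not above the empty spots on any array in either channel, and no ratio is given for them. Cnbp and Pop7 were above them on at most 3 arrays in a channel.

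Among the clones short of the call on the higher side, Ube3a, the ubiquitin ligase lost in Angelman syndrome, stood at 0.82 at spot 1706, above 0 throughout (standard error 0.15, adjusted p = 0.0989), and at 0.37 and 0.01 at its 2 brighter clones. Ppp3ca, the catalytic subunit of calcineurin, stood at 0.57 at spot 426 (standard error 0.12, adjusted p = 0.122), with 0.14 in one orientation and 1.00 in the other, and at 0.35 at its brightest clone. The Ppp3ca clone with the lowest p, spot 5655, lay below 0 but was not above the empty spots on any array in either channel. Cox4i1, a subunit of cytochrome c oxidase, had a ratio of 0.61 (standard error 0.13, adjusted p = 0.126). Among 228 proteasome and ubiquitin clones and 60 of calcineurin, calmodulin and its kinases, limma and the methods' t-test called 0. Of the former, 13 were higher and 9 lower nominally (5.7% and 3.95%, against 5.04% and 4.24% of all clones). Of the latter, 7 were higher and 5 lower (11.7% and 8.33%).

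The study printed 17 genes as examples for this comparison, a choice made on these same arrays, so that their count is not independent evidence. Of these, 14 had a clone by symbol, 45 clones in all, and among those 14 Adam10 and Insig1 were the 2 with a called clone. Hspca had no clone by symbol, and whether the called spot 9815 of "heat shock protein, 1" is its clone was not tested. Ptp4a2, a prenylated phosphatase, stood at 0.71 on 10 of 10 arrays (standard error 0.13, adjusted p = 0.0841) at spot 11032, while a clone as bright, spot 9436, stood at 0.02 (standard error 0.16). Nme1, a nucleoside diphosphate kinase, stood at -0.52 on 10 of 10 arrays (standard error 0.11, adjusted p = 0.126). Spry2, a brake on receptor tyrosine kinase signalling, stood at 0.65 with 8 of 10 arrays above 0 (standard error 0.13, adjusted p = 0.122), 0.21 in one orientation and 1.09 in the other. The brightest clones of Srpk2, Luc7l2, Baiap2 and Abcf2 stood at 0.39, 0.34, -0.24 and -0.22, with adjusted p of 0.363, 0.413, 0.704 and 0.624. The Srpk2 clones lay apart: spots 17630, 19282 and 3730 stood at 0.58, 0.25 and -0.08. Its remaining clone, spot 14764, was above 0 on 10 of 10 arrays but above the empty spots on at most 4 arrays in a channel.

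**Figure D4:**
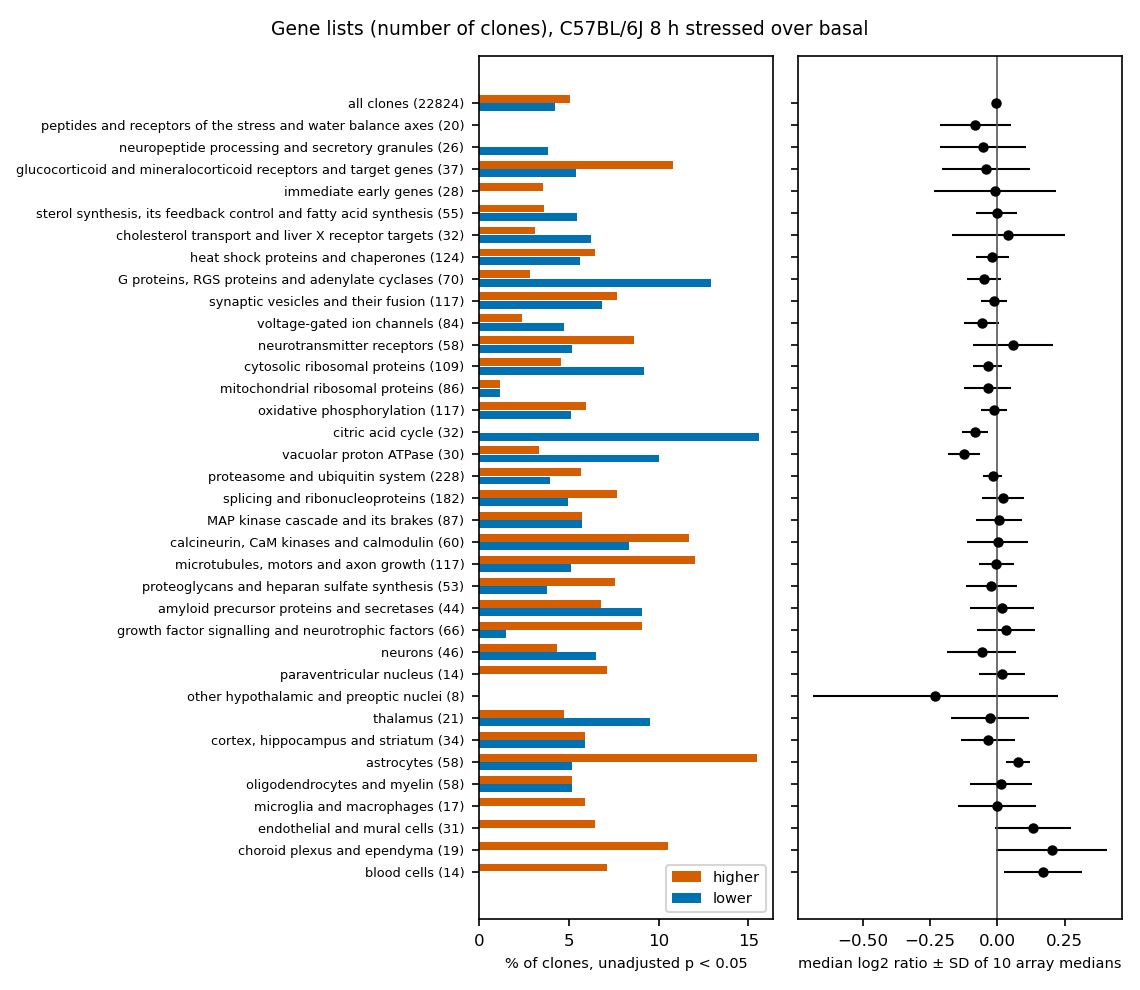
Left, the percentage of each list's clones that were higher (orange) or lower (blue) nominally, with all clones in the top row. Right, the median log2 ratio of each list with the SD of its medians over the 10 arrays. The citric acid cycle and the G proteins have the longest blue bars and the astrocyte markers the longest orange bar, and most medians lie within their SD of 0. The lists differ in brightness. Above the empty spots on all 10 arrays in both channels were 15 of 32 citric acid cycle, 10 of 70 G protein and 23 of 58 astrocyte clones, against 2045 of 22824 clones. No share was matched for brightness.

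The hormone axis itself showed little that could be measured. Of 20 clones of its peptides and their receptors, limma called 0, none was nominal and 0 passed the methods' t-test, but 6 of the 20 were above the empty spots on 5 or more arrays in a channel. Of these, Nts (neurotensin) stood at -0.20 (standard error 0.11) and Cartpt (the CART peptide) at -0.08 (standard error 0.15) at its brighter clone. Of 37 clones of corticosteroid receptors and their target genes, 0 were called and 0 passed the methods' t-test. Nominally, 4 were higher and 2 were lower (10.8% and 5.41%, against 5.04% and 4.24% of all clones), and the list's median was -0.04 ± 0.16. Klf9, a transcription factor that glucocorticoids induce, gave 3 of the 4 higher clones. Its 2 brighter clones had ratios of 0.64 (standard error 0.15, adjusted p = 0.154) and 0.59. The other was Mt1, a metallothionein, at 0.51 (standard error 0.12, adjusted p = 0.21). Of the 2 lower clones, Fkbp4 stood at -0.35 (standard error 0.14, adjusted p = 0.48) and Sgk1 was not above the empty spots on any array. Fkbp5, Ddit4 and Nr3c1, above the empty spots on 10 of 10 arrays in both channels, stood at -0.13, -0.19 and 0.08. Among the 28 immediate early gene clones, 0 were called and 0 passed the methods' t-test. Nominally, 1 was higher (3.57%, against 5.04% of all clones) and 0 were lower.

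Markers of other cell types were measured beside these genes. Of 58 astrocyte clones, 0 were called by limma, 1 in the methods' t-test once adjusted, and 9 were higher and 3 lower nominally (15.5% and 5.17%, against 5.04% and 4.24% of all clones). Their median of 0.08 ± 0.04 (SD over 10 array medians) was above 0 on 10 of 10 arrays. Fabp7, a fatty acid binding protein of astrocytes and radial glia, stood at 0.54 and 0.56 at 2 clones, each on 10 of 10 arrays (standard errors 0.12, adjusted p = 0.13 and 0.14). Glul (glutamine synthetase) gave 5 of the 9 higher clones, 1 of them hardly above the empty spots and the others from 0.27 to 0.38, while its brightest clone was below 0 on 10 of 10 arrays, at -0.33 (standard error 0.11, adjusted p = 0.37). The called genes Gpc4 and Serpinf1 are also made by astrocytes, and the part of the astrocyte markers in their ratios was not tested. The 14 blood cell clones had a median of 0.17 ± 0.15 with 0 called, 1 higher (7.14%) and 0 lower nominally and 0 in the methods' t-test. The 19 choroid plexus and ependyma clones had a median of 0.20 ± 0.21 with 2 higher (10.5%) and 0 lower nominally. The 31 endothelial and mural clones had 0.13 ± 0.14 with 2 (6.45%) and 0. The 17 microglia and macrophage clones had -0.002 ± 0.14 with 1 (5.88%) and 0. In each of these lists limma and the methods' t-test called 0. Of the choroid plexus clones, Igf2 and Prlr gave the nominal ones, at spots that were not above the empty spots on any array. For the 58 oligodendrocyte clones the median was 0.01 ± 0.11, for the 46 neuron clones -0.06 ± 0.13 and for the 21 thalamus clones -0.03 ± 0.15. Each had 0 called by limma and by the methods' t-test. Higher and lower nominally were 3 and 3 oligodendrocyte clones (5.17% each), 2 and 3 neuron clones (4.35% and 6.52%) and 1 and 2 thalamus clones (4.76% and 9.52%).

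The same clones were set beside 2 other comparisons of stressed over basal pools, that of C57BL/6J after 4 h and that of DBA/2J after 8 h. The C57BL/6J comparisons share the basal pool, while that of DBA/2J comes from separate pools. By the paper, all mice were decapitated at the same hour, so the 8 h and 4 h groups swam at different hours of the day. Time since the swim and hour of the swim cannot be told apart here. The difference of the ratios, 8 h minus 4 h in C57BL/6J, was called for 15 of the 19 clones, against 113 of all clones (0.495%, and 10.7% nominally), and the 19 were chosen by 1 side of this difference. Ptges3 (spot 5449) stood at 1.60 at 8 h and 0.03 at 4 h, a difference of 1.57 (standard error 0.20, adjusted p = 0.00053). Serpinf1 stood at 1.13 at 8 h and -0.30 at 4 h, a difference of 1.43 (standard error 0.22, adjusted p = 0.0035). Insig1 stood at 1.34 and 1.14 at 8 h and 0.42 and 0.49 at 4 h, differences of 0.92 and 0.65 that were not called (adjusted p = 0.054 and 0.12). The difference was not called for Bcl11b and for spot 9815 of "heat shock protein, 1" either.

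Between the strains at 8 h, the difference C57BL/6J minus DBA/2J was called for 15 of the 19 clones, against 137 of all clones (0.6%, and 10.4% nominally), again with 1 side of it used to choose them. Ratios in DBA/2J are also by the labelled dyes, and the published folds there for Adam10 and p23 (Ptges3) have the opposite sign. In DBA/2J, which the choice did not use, 14 of the 18 higher clones had a ratio below 0, against 49.8% of all clones. Of the 14, 4 were called lower in DBA/2J (both Ptges3 clones, Adam10 at spot 7838 and "synaptosomal-associated protein" at spot 16747) and 10 did not pass the adjusted p, with spot 13159 and Igip close to 0. Of the other 4 clones, spot 8932 of "heat shock protein, 1" was called higher in DBA/2J. Ptges3 (spot 5449) stood at 1.60 in C57BL/6J and -0.88 in DBA/2J, where it was called lower (standard error 0.08, adjusted p = 0.0070), a difference of 2.48 (standard error 0.12, adjusted p = 9.4e-11). The second Ptges3 clone stood at 0.78 in C57BL/6J and -0.70 in DBA/2J. Adam10 stood at 1.21 and 1.23 in C57BL/6J and at -0.66 and -0.55 in DBA/2J, differences of 1.87 (adjusted p = 5.6e-08) and 1.79 (adjusted p = 1.1e-06). Insig1 stood at 1.34 and 1.14 in C57BL/6J and at -0.37 and -0.51 in DBA/2J, differences of 1.70 and 1.65. The clones of "heat shock protein, 1" stood above 0 in both strains. They stood at 0.77 and 0.81 in C57BL/6J and at 0.53 and 0.31 in DBA/2J, differences of 0.24 and 0.50 with standard errors of 0.13 and 0.15 (adjusted p = 0.52 and 0.17). Bcl11b stood at -0.74 in C57BL/6J at 8 h, -0.33 in C57BL/6J at 4 h and -0.39 in DBA/2J at 8 h, and neither difference was called (adjusted p = 0.33 and 0.30).

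**Figure D5:**
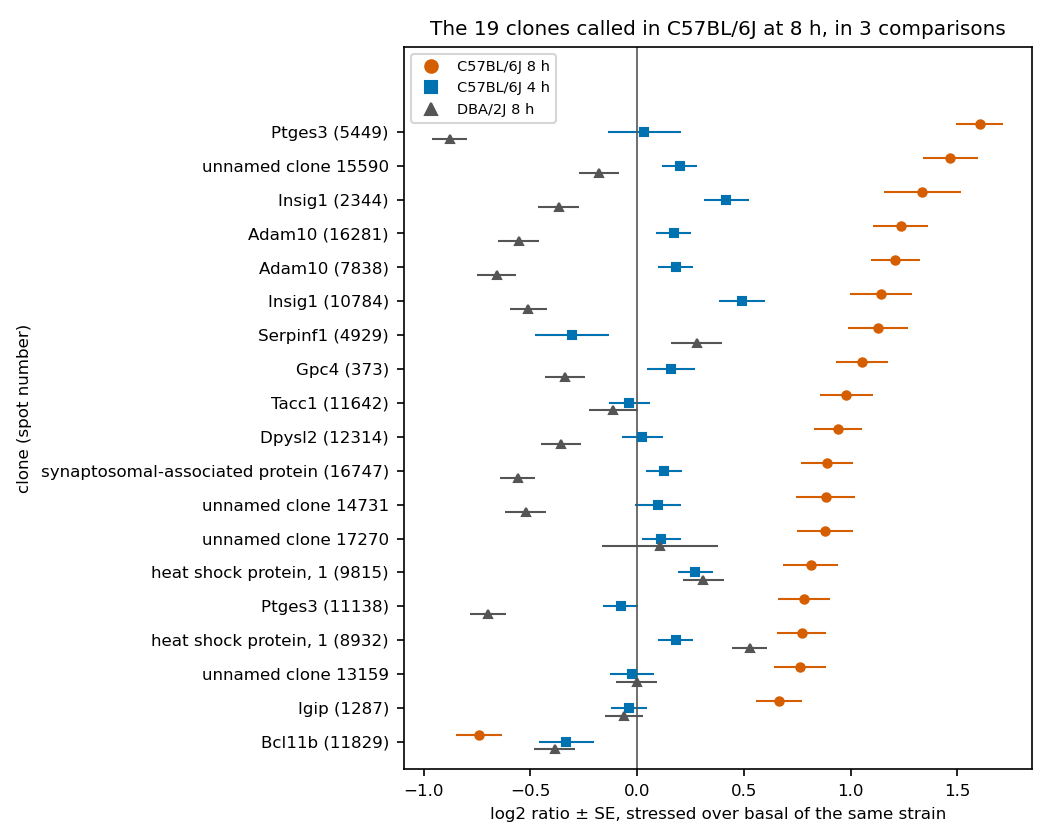
Fitted log2 ratio with its standard error (x axis) of the 19 clones called in C57BL/6J at 8 h (y axis, with spot numbers) for C57BL/6J 8 h (circles), C57BL/6J 4 h (squares) and DBA/2J 8 h (triangles), each stressed over basal. Ptges3, Adam10 and Insig1 have circles at 0.78 to 1.60 and triangles at -0.88 to -0.37.

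The basal pools of both strains were also set against each other, DBA/2J over C57BL/6J, an array set that shares the basal C57BL/6J pool. There Ptges3 stood at 0.64 and 0.52, Adam10 at 0.75 and 0.59 and Insig1 at 0.94 and 0.98, all higher in DBA/2J by the labelled dyes with adjusted p of 0.0013 to 0.038. The remaining clones called higher at 8 h also stood above 0 there, except Serpinf1 at -0.52 (adjusted p = 0.088). The largest value was 2.29 at the unnamed spot 17270 (adjusted p = 1.3e-06). At 4 h, over that same basal pool, the clones of Ptges3, Adam10 and Insig1 stood at -0.08 to 0.49. The part of the shared basal pool in these values was not tested.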

How the data were processed

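Per the labels, PVN punches were extracted with TRIzol and amplified, labelled with Cy5 or Cy3 and hybridised to spotted cDNA arrays. The deposited scanner files give an intensity and a local background per spot and dye, and a table of log2 ratios holds the authors' processed values, used as an alternative. Intensities were background-corrected (normexp, offset 50) and loess-normalized within each array without the 1368 control spots, and tested in limma 3.58.1 (R 4.3.3) with a dye term and Benjamini-Hochberg adjustment over 22824 clones. The methods' t-test is the study's test on the same ratios. Settings tried were other background and normalization, clone filters, scan day, each dye orientation and each array left out. Symbols came from array identifiers and names and from name pairs in the study's supplementary tables, updated through RefSeq.

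Clones named were the called ones with all clones of the gene, the 10 highest and 10 lowest at 1 sign on 10 of 10 arrays, the study's examples, and of each list the called clones and the lowest p in each direction. Other named clones were chosen after their values were seen, and clones not above the empty spots on 5 arrays in a channel were not described as results. Genes and lists were chosen with earlier results of these data known. Arrays limit the precision by their number. One of the study's examples is not reported here.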

Additional observations from a re-analysis of the deposited data

Results flagged for a closer look

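Clones are listed here because a test of the difference between 2 comparisons passed the call for clones chosen by one of them. The difference in log2 ratio, C57BL/6J 8 h minus C57BL/6J 4 h, was 1.57 and 0.86 for the Ptges3 clones, 1.03 and 1.06 for Adam10, 1.43 for Serpinf1, 0.90 for Gpc4, 1.02 for Tacc1, 0.92 for Dpysl2, 0.70 for Igip, 0.59 for spot 8932 of "heat shock protein, 1" and 0.76 for spot 16747 of "synaptosomal-associated protein". For the unnamed clones it was 1.27 (spot 15590), 0.77 (spot 17270) and 0.79 (spots 13159 and 14731). The 2 comparisons share the basal pool.

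The difference C57BL/6J 8 h minus DBA/2J 8 h was 2.48 and 1.48 for Ptges3, 1.87 and 1.79 for Adam10, 1.70 and 1.65 for Insig1, 1.39 for Gpc4, 1.30 for Dpysl2, 1.09 for Tacc1, 0.85 for Serpinf1, 0.73 for Igip and 1.45 for spot 16747 of "synaptosomal-associated protein". For the unnamed clones it was 1.65 (spot 15590), 1.41 (spot 14731) and 0.76 (spot 13159). No called clone had an array standing apart by Dixon's criterion.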

How the results depend on the processing

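Limma called 19 clones in the setting reported, and 9 to 14 when any single array was left out. Other settings called 34 with median centring (17 higher and 17 lower, against 18 and 1), 108 among clones brighter than the median, 103 by fold and Z-score, 33 from the authors' processed values and 55 with a scan-day block. The methods' t-test called 39 after adjustment and 549 before it. All 50 arrays in one fit called 197, and the orientations averaged called 2. Arrays carrying the stressed RNA in Cy5 called 1 and held 0 of the 19, and those carrying it in Cy3 called 42 and held 4 of the 19. The first and the second scan day alone called 0 in limma, with 2417 and 1684 clones at an unadjusted p under 0.05. The cause of these shifts was not tested. The authors' values, the brighter clones, the day block and the fit of 50 arrays each held all 19 clones.

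For 8 h minus 4 h, the replicate block called 15 in place of 113 and all 50 arrays called 180, and median centring split the calls 53 higher to 43 lower, against 87 to 26. For C57BL/6J minus DBA/2J at 8 h, the replicate block called 30 in place of 137 and all 50 arrays 216. Same-numbered arrays correlated at -0.004 to 0.012 and -0.008 to 0.010, and 1 of 10 correlated best with its own number in each, so the numbers do not pair arrays.

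Among named clones, signs turned only for clones short of the call. With the stressed pool in Cy5 alone, values were -0.26 and -0.38 for spots 2149 and 4146 and 0.083 for spot 22918 of "synaptosomal-associated protein", -0.24 for Adcyap1, 0.24 for Tacc1 (spot 8180), 0.017 for Bcl11b (spot 12713), -0.75 for Adam10 (spot 21310) and -0.11 for Ptges3 (spot 22079). With it in Cy3 alone they were 0.25 for Gabra6, 0.37 and 0.089 for spots 2453 and 18692 of "synaptosomal-associated protein", 0.084 for "heat shock protein, 1" (spot 3092) and -0.39 for Ptges3 (spot 9600). Median centring gave -0.089 for Ptges3 (spot 22079) and -0.049 for Idh3a, and no background subtraction gave -0.014 for Ptges3 (spot 9600). With 1 array left out, Ptges3 spot 9600 ran from -0.28 to 0.18 and spot 22079 from -0.056 to 0.073, and "synaptosomal-associated protein" spot 18692 from -0.22 to 0.023 and spot 22918 from -0.056 to 0.035. Dim signal limits most clones, and 7 of the 19 called clones were above the empty spots on all 10 arrays in both channels.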
